A study of Rattus norvegicus with 4 samples.

Results

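The genes described here are 10 genes of the cellular oxygen sensor that acts through hypoxia-inducible factors (HIFs): Hif1a, Epas1, Arnt, Vhl, Egln1, Egln2, Egln3, Vegfa, Adm and Bnip3. They were listed by name, since nickel ions are known to act on the prolyl hydroxylases of this pathway, and a probe was taken as theirs when its RefSeq accession carried the gene's symbol. By this rule 9 of the 10 genes had a probe, of 16581 genes with a symbol on the array. They were covered by 14 probes in 35 spots. No probe could be tied to Egln1, and its level is not reported.

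The RNA came from NR8383 cells, an alveolar macrophage line that derives from rat lung lavage. The cells had gone through 20 passages, were seeded for 48 h in medium with 15% serum, and were kept in 95% air and 5% CO2. All samples belong to 1 group, exposed to NiZnFe2O4, a mixed oxide of iron with nickel and zinc, for 4 h at a dose of 9.25 µg/mL, with 4 biological replicates and 1 one-colour Agilent array each. Arrays of unexposed cells were not analysed here. The values therefore describe which oxygen-sensing transcripts were detectable after exposure and how they varied between replicates, and an effect of the exposure cannot be read from them.

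HIF-1 and HIF-2 are transcription factors made of an oxygen-regulated alpha subunit, encoded by Hif1a or Epas1, and a constant partner, encoded by Arnt. In the presence of oxygen the prolyl hydroxylases encoded by Egln1, Egln2 and Egln3, which need iron and 2-oxoglutarate, mark the alpha subunit, and the ubiquitin ligase subunit encoded by Vhl then directs it to the proteasome. The control is on the protein, so the level of an alpha subunit's messenger RNA is not a measure of HIF activity. Vegfa, Adm, Bnip3 and Egln3 are among the known target genes of HIFs, and in macrophages HIF-1 is known for its part in glycolysis and inflammatory activation.

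Hif1a, Adm and Bnip3 had their highest level on the same array, as described further on, so the stretches ahead of their starts are shown. Each is the 250 bases before the gene's start in the RefSeq annotation of rat assembly GRCr8, written 5′ to 3′ along the gene's strand. The positions are chr6:98359648-98359897 (plus strand) for Hif1a, chr1:174179950-174180199 (plus strand) for Adm and chr1:203154963-203155212 (minus strand) for Bnip3. Capitals mark ACGTG or GCGTG, the core of the hypoxia response element, or its reverse complement.
Hif1a: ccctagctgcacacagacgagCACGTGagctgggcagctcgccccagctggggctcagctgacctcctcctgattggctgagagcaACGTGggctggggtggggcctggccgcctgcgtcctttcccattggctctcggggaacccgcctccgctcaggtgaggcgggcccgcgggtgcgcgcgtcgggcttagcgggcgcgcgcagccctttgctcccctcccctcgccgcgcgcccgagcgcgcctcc
Adm: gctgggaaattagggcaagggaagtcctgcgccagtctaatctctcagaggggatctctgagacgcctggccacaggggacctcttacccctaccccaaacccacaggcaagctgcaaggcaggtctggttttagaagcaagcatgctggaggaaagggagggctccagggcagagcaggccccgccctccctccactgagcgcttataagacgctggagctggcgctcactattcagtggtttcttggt
Bnip3: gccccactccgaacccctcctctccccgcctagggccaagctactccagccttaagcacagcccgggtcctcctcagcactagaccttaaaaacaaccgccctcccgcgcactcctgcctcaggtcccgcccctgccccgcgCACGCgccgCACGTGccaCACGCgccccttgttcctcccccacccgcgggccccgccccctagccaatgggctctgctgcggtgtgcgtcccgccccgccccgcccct
The Hif1a window held 3 matches and the Bnip3 window 4, with a match on each strand counted apart in the palindrome CACGTG that both windows have. The last match of the Hif1a window began at base -164, counted from the start, and the first match of the Bnip3 window at -108. The Adm window held none. Of the 10 genes, 4 had a match in their window, the others being Arnt and Egln1 with 1 match each, and 6 had none. Either motif was found in 36.7% of 33469 windows of this length, and ACGTG alone in 16.6%. The median share of G and C bases over those windows was 51.2%. It was 73.6% in the Hif1a window, 72.4% in that of Bnip3 and 58.8% in that of Adm, so the windows differ in composition from the background. A match in these letters is a description, and HIF binding was not measured.

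Each array held 58717 spots for rat transcripts, none of them saturated, and between 21812 and 24981 of them were well above background, a flag that the scanner software sets when a spot clearly exceeds the background noise. Signals are given in intensity units. The lowest signal of a probe well above background was 9.23, 11.7, 13.0 and 9.79 units on replicates 1 to 4. Levels are log2 signals relative to the 75th percentile over all probes of the same array, so that 0 is the signal of that percentile, and the number of arrays limits their precision. Signals depend on the probe's sequence, so a gene was not ranked against another. The cells carried macrophage transcripts: on all 4 arrays 12 of 17 macrophage markers with a probe passed, among them Cd68 at 7.13 ± 0.08 (SD, n = 4), while Marco, Cd163 and Adgre1 passed on no array. None of 8 lung epithelial markers passed, and 3 of 7 endothelial markers did, Cdh5, Pecam1 and Vwf, the last with 1 of its 2 probes. Over all genes with a symbol the share was 38.7%, near that of the endothelial markers.

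Of the 9 genes with a probe, 5 passed this flag on every array: Hif1a, Vhl, Egln2, Adm and Bnip3. Arnt passed on 3 arrays, and Epas1, Egln3 and Vegfa on none. Over all 16581 genes the share that passed on all 4 arrays was 38.7%, on 1 to 3 arrays 9.85% and on none 51.4%. The members' count rests on few genes and was not tested against it. The count was 6, with Arnt added, when 3 of 4 arrays sufficed (41.5% of all genes), with the looser flag of a positive and significant signal (50.9%) or without replicate 3 (40.1%). It was 4, with Hif1a lost, when every probe of the gene was required to pass (33.2%).

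**Figure D1:**
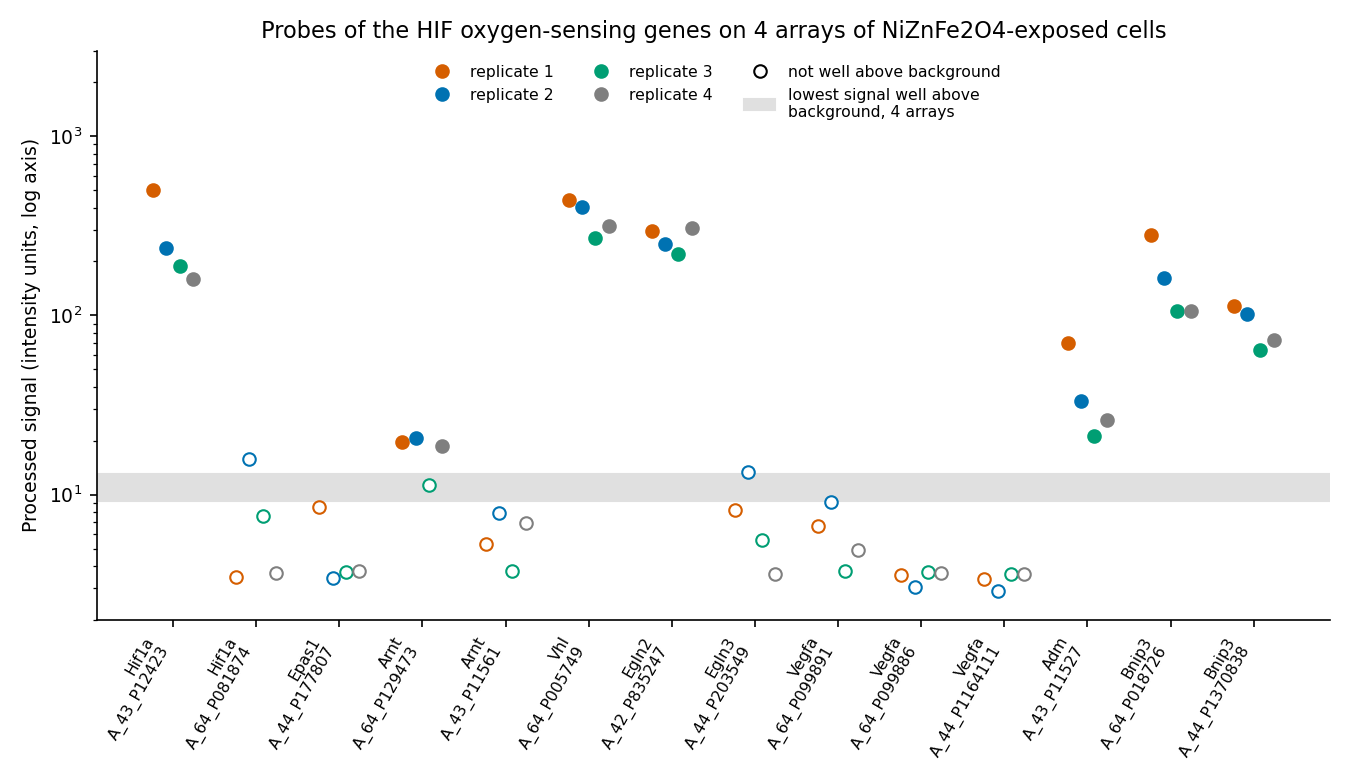
Processed signal (intensity units, log axis) of the 14 probes on each of 4 arrays of exposed cells; filled points were well above background, open points were not, and the grey band spans the lowest signal well above background on the 4 arrays. The leading probes of Hif1a, Vhl, Egln2, Adm and Bnip3 lie above the band on every array, those of Epas1 and Vegfa below it.

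Of the alpha subunits, Hif1a was well above background with its leading probe and Epas1 was not. The leading Hif1a probe, A_43_P12423, gave 501, 238, 188 and 159 units on replicates 1 to 4. Replicate 1 was thus the highest array and replicate 4 the lowest. On every array the signal was at least 14.5 times the lowest one well above background. On the scaled log2 level these were 3.59, 2.86, 3.00 and 2.69, a mean of 3.04 ± 0.39 (SD, n = 4). A second Hif1a probe for the same accession, A_64_P081874, gave 3.48, 15.9, 7.63 and 3.63 units and was well above background on no array. It passed the looser flag on replicates 2, 3 and 4, and its signal was lowest on replicate 1. The probes of Hif1a therefore disagreed on whether the transcript was well above background.

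Epas1, which encodes the alpha subunit of HIF-2 and is known for its level in endothelium, had 1 probe with signals of 8.53, 3.44, 3.71 and 3.75 units. None was well above background, and no level is given. Each lay below the lowest signal of a probe well above background on its array, 9.23, 11.7, 13.0 and 9.79 units on replicates 1 to 4. These values are no strict limit of detection, since the second Hif1a probe fell short of the flag at 15.9 units on replicate 2. Arnt, the partner of both alpha subunits, gave 19.6, 20.6, 11.3 and 18.7 units with probe A_64_P129473. It passed on replicates 1, 2 and 4 and fell short on replicate 3, where it was at 0.870 of the lowest signal well above background. The second Arnt probe, A_43_P11561, lay between 3.74 and 7.86 units and passed on no array.

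Vhl, the substrate-binding subunit of the ligase that removes hydroxylated HIF, had the smallest SD of the 5 members above background after scaling, although without scaling and with spike-in centring Egln2 had a smaller one. Its probe gave 439, 401, 271 and 316 units on replicates 1 to 4. These signals followed the overall brightness of the arrays: after scaling the levels were 3.40, 3.61, 3.53 and 3.68, with a mean of 3.55 ± 0.12 (SD, n = 4). Only 14.4% of the 6418 genes well above background on all 4 arrays had a smaller SD.

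Of the prolyl hydroxylases, Egln2, known as PHD1, was well above background on all 4 arrays and Egln3, known as PHD3, on none. Egln2 gave 295, 251, 220 and 309 units, and its scaled levels were 2.82, 2.94, 3.23 and 3.64. Replicate 4 was the highest and replicate 1 the lowest, the mean was 3.16 ± 0.36 (SD, n = 4), and 82.4% of the genes above background had a smaller SD. Egln3, which HIF itself induces in many cells, had 1 probe in 2 spots with mean signals of 8.25, 13.4, 5.59 and 3.62 units. It was positive and significant by the looser flag on 3 arrays and well above background on none.

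Vegfa, the angiogenic growth factor and a textbook HIF target, was not well above background with any of its 3 probes. Probes A_44_P1164111 and A_64_P099886, designed to the same transcript variant, lay between 2.90 and 3.68 units on all arrays and did not pass the looser flag on any. The third, A_64_P099891, gave 6.68, 9.14, 3.75 and 4.89 units. It passed the looser flag on replicates 1, 2 and 4. Each of these signals was below the lowest signal well above background on its array, so no Vegfa level is given, as for Epas1. The share of cells with a transcript and its amount per cell cannot be told apart in these bulk samples.

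Adm encodes adrenomedullin, a secreted vasodilator peptide that HIF-1 induces. Its probe was printed in 10 spots, whose mean signals were 70.4, 33.4, 21.3 and 26.0 units on replicates 1 to 4. On replicate 1 the spots ranged from 64.9 to 81.9 units, and on the other arrays from 16.4 to 39.7 units, so no spot of another array reached those of replicate 1. These signals are not scaled, and replicate 1 was the brightest array: before scaling the median gene was 0.56 log2 units higher there than on the other arrays. On replicate 3, the dimmest, 8 of 10 spots were well above background, and on the other arrays all 10. The scaled levels were 0.76, 0.03, -0.14 and 0.07, a mean of 0.18 ± 0.40 (SD, n = 4).

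Bnip3, a mitochondrial BCL2-family protein that promotes mitophagy, had 2 probes, and both were well above background on every array. The leading probe, A_64_P018726, was printed in 10 spots with mean signals of 283, 162, 105 and 106 units. Its spots on replicate 1 lay between 262 and 298 units, above all spots of the other arrays, which ranged from 91.0 to 178 units among spots without an outlier flag. The scaled levels were 2.76, 2.31, 2.16 and 2.10, a mean of 2.33 ± 0.30 (SD, n = 4). The other probe, A_44_P1370838, in 2 spots, gave 113, 102, 64.0 and 73.1 units. On the scaled level it stood at 1.44, 1.64, 1.45 and 1.56, or 1.52 ± 0.10 (SD, n = 4), so replicate 1 was not above the others and was nearly level with replicate 3.

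**Figure D2:**
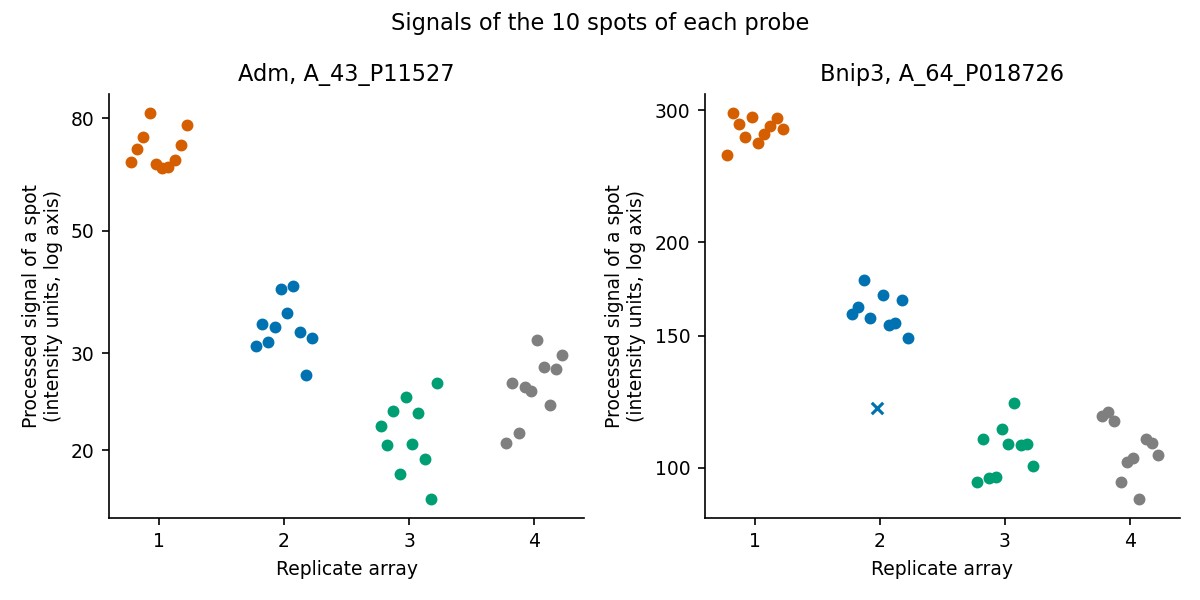
Processed signal (intensity units, log axis, before scaling) of each of the 10 spots of the Adm probe and of the leading Bnip3 probe on the 4 arrays; the cross is the spot with an outlier flag, which was left out. For both probes the spots of replicate 1 lie above those of every other array, as the unscaled signals of 80.1% of the genes above background were highest on that array.

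The repeated spots give the technical error within an array. For the Adm probe the SD over spots of 1 array was at most 0.22 log2 units and the standard error of an array's mean at most 0.07, against an SD of 0.40 between the scaled array means. For the leading Bnip3 probe the SD over spots was at most 0.13, against 0.30 between arrays. The spread between replicates of these 2 probes was therefore larger than the error within an array. For the second Bnip3 probe it was not: its 2 spots had a median SD of 0.16 within an array, against 0.10 between arrays. The standard error of an array's mean was at most 0.17 for that probe. Over 974 probes printed in 10 spots and well above background on all 4 arrays, the median SD was 0.07 within an array and 0.17 between arrays. The spots share the RNA, the labelling and the array, so they do not separate a difference between flasks from one of labelling or hybridisation.

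Hif1a, Adm and the leading Bnip3 probe shared a pattern across the 4 arrays, with replicate 1 apart from the rest. The gap between replicate 1 and the next array was 0.58 log2 units for Hif1a, 0.69 for Adm and 0.46 for Bnip3. For the other members on all arrays, Vhl and Egln2, replicate 1 was the lowest after scaling, while before scaling the Vhl signal was highest there. Replicate 1 was the highest array for 3 of the 5 members and for 22.3% of the 6418 genes above background. That share depends on the scaling: without scaling replicate 1 was highest for 4 of the 5 members and 80.1% of the genes, and after normexp background correction for 3 members and 52.9% of the genes. A level on replicate 1 at least 0.5 log2 units above the mean of the other arrays was found for the same 3 members and for 5.36% of those genes.

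The median gene deviated on replicate 1 by -0.08 log2 units from the mean of the other arrays, and each member was set against it. Relative to the median gene, replicate 1 was higher by 0.81 for Hif1a, 0.85 for Adm and 0.65 for Bnip3. For Vhl the deviation was -0.13 and for Egln2 -0.37. A larger deviation was found for 1.57% of the genes in the case of Hif1a, 1.39% for Adm and 3.52% for Bnip3. Among genes within 0.5 log2 units of its own level, the 95th percentile of this deviation was 0.59 for Hif1a, 0.64 for Adm and 0.63 for Bnip3. All 3 lay above it, Bnip3 by little. The second Bnip3 probe deviated by -0.03, so the pattern of Bnip3 rests on 1 of its 2 probes. That of Hif1a rests on the 1 of its 2 probes that was well above background. The other Hif1a probe, well above background on no array, deviated by -1.69. With the mean of all probes in place of the leading one, the deviation was -0.40 for Hif1a and 0.35 for Bnip3. A larger deviation was then found for 87.6% and 15.7% of the genes. For the dim Adm probe the deviation was 0.18 after normexp background correction of the median signals with an added offset, and the part of each of these changes was not tested. After normexp it was 0.67 for Hif1a and 0.47 for Bnip3. A larger deviation was then found for 26.7% of the genes in the case of Adm, 1.32% for Hif1a and 5.53% for Bnip3.

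**Figure D3:**
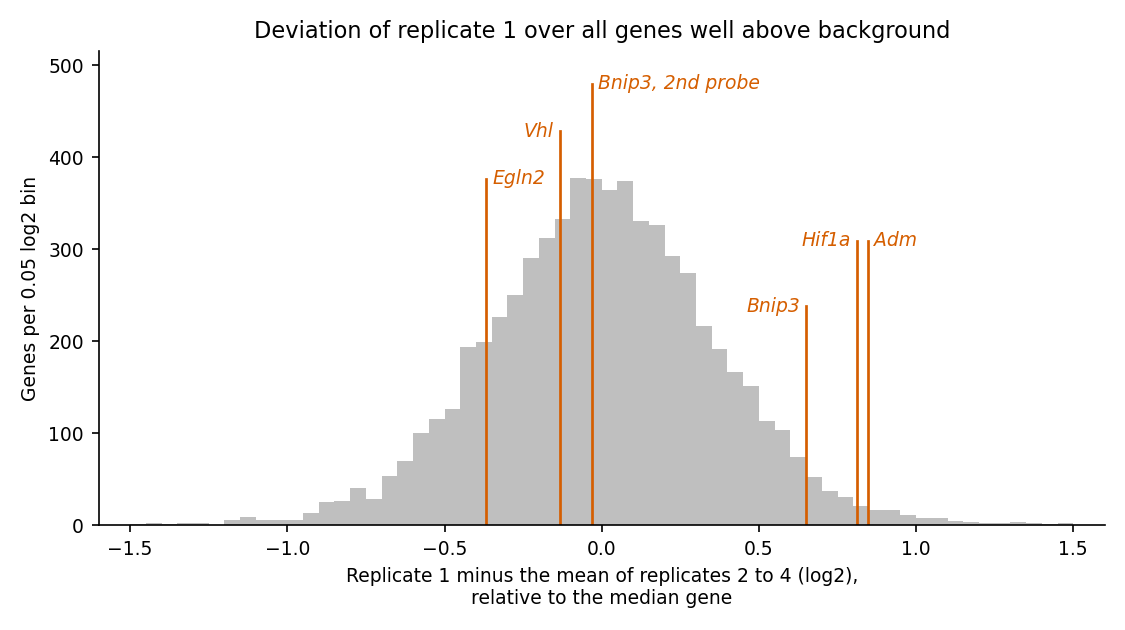
Histogram over the 6418 genes well above background of the level on replicate 1 minus the mean level of replicates 2 to 4 (log2), relative to the median gene; lines mark the 5 members and the second Bnip3 probe. Hif1a at 0.81, Adm at 0.85 and Bnip3 at 0.65 lie in the upper tail, and the second Bnip3 probe at -0.03 lies near the middle.

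Without replicate 1 the median SD of the 5 members was 0.11 log2 units, against 0.20 for all genes above background. The SD was then 0.16 for Hif1a, 0.07 for Vhl, 0.35 for Egln2, 0.11 for Adm and 0.11 for Bnip3. Since 3 of the 5 members stood apart on replicate 1, a lower median without it follows from that pattern and is no separate result. With all 4 arrays the median SD was 0.36 for the members and 0.23 for the genes. With no filter on dim probes the order turned, with 0.38 for the 9 members with a probe and 0.43 for all genes, and after normexp both were 0.19. The position of the spots was also examined. Around the 23 spots of the leading probes, the local median deviation of neighbouring single-spot probes was at most 0.33 log2 units in size, found at 1 Bnip3 spot on replicate 2, which also carried an outlier flag and was left out. At the Hif1a spot it was -0.04, -0.13, 0.11 and 0.12 on replicates 1 to 4. With the local trend removed, the deviation of replicate 1 relative to the median gene was 0.79 for Hif1a, 0.83 for Adm and 0.64 for Bnip3. With 1 array per replicate, a difference in the flask of cells cannot be told apart from one in labelling or hybridisation.

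**Figure D4:**
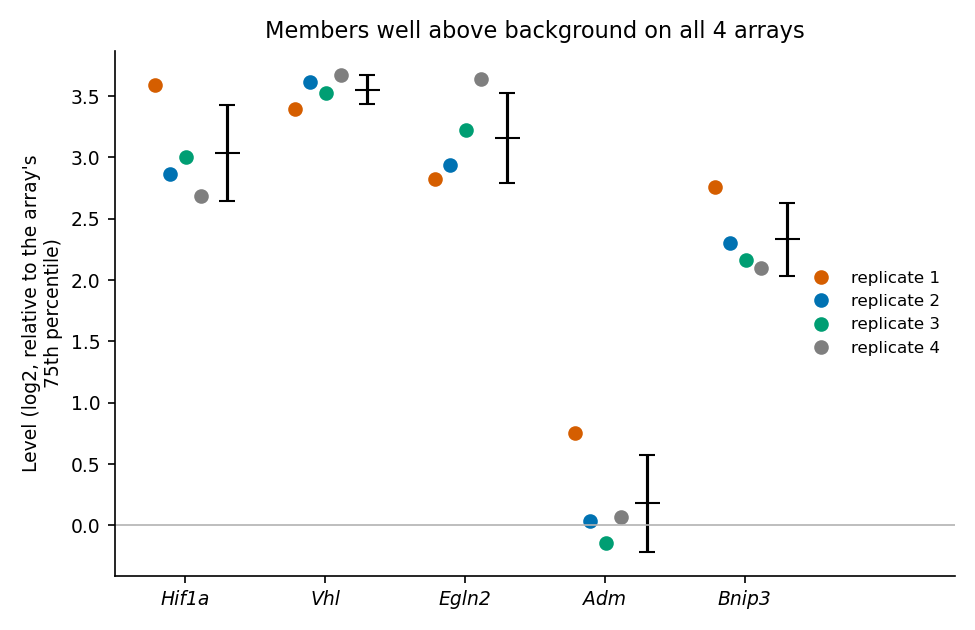
Level (log2, relative to the array's 75th percentile over all probes) of the 5 members well above background on all 4 arrays, 1 point per replicate, with the mean and SD as bars (n = 4). Replicate 1 is highest for Hif1a, Adm and Bnip3 and lowest for Vhl and Egln2.

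The genes most like each member were found by the root mean square difference of the levels over the 4 arrays, each gene centred on its own mean. Nearest to Hif1a were Hyal3 at 0.02 log2 units, Hipk3 at 0.03 and Mfsd6 at 0.05, against a median of 0.41 over all genes. The nearest to Vhl was Vav1, to Egln2 Wdr81, to Adm Wapl and to Bnip3 Igsf6, at 0.01, 0.02, 0.04 and 0.02 log2 units. A distance of at most 0.1 was found for 688 genes from Vhl and for 18 genes from Hif1a. Among the members the nearest pairs were Hif1a and Bnip3 at 0.13 and Adm and Bnip3 at 0.14, and the farthest was Hif1a and Egln2 at 0.61. With 4 arrays such likeness is a description of these replicates.

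Other genes of the pathway were read from 8 lists. Of 92 measured genes 48 (52.2%) passed on all 4 arrays, 8 on 1 to 3 arrays and 36 on none, against 38.7% of all genes on all 4. The lists differed in this respect, and no list was tested.

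Of 11 measured genes listed for the VHL ubiquitin ligase and HIF turnover 8 passed on all 4 arrays, beside 38.7% of all genes. They were Elob, Eloc, Rbx1, Nedd8, Os9, Rack1 and the chaperone genes Hsp90aa1 and Hsp90ab1, so the count is not one of the ligase alone. The elongin genes Elob and Eloc, which link VHL to the ligase scaffold, stood at 7.52 ± 0.24 and 4.72 ± 0.24 (SD, n = 4 each). Eloc passed with 1 of its 2 probes. The RING subunit gene Rbx1 stood at 5.88 ± 0.19 (SD, n = 4). No probe was tied to the scaffold gene Cul2. Siah2, a ligase that targets prolyl hydroxylases, passed on no array. Of 4 measured genes of the oxygenases and of coactivator control only Cited2, which competes with HIF for its coactivators, passed on all 4, at 1.10 ± 0.22 (SD, n = 4). Hif1an, the asparaginyl hydroxylase known as FIH, passed on no array, and the coactivator gene Crebbp on 2. Of 6 partner and related factors Arnt2, a paralogue of Arnt, passed with 1 of its 2 probes, at 1.98 ± 0.35 (SD, n = 4), and Hif3a and Ahr on no array.

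Glycolytic HIF targets were the list with the largest share of genes above background, 14 of 17 (82.4%), beside 38.7% of all genes. Slc2a1, the glucose transporter GLUT1, stood at 5.69 ± 0.16, Pgk1 at 8.39 ± 0.16 and Ldha, the lactate dehydrogenase subunit A, at 10.01 ± 0.07 (SD, n = 4 each). Pdk1, the kinase that shuts off pyruvate dehydrogenase, stood at 1.97 ± 0.19 and Hk2 at 0.40 ± 0.34 (SD, n = 4 each). Pdk1 passed with 2 of its 4 probes. Hk1 and the lactate exporter gene Slc16a3 passed on no array and Aldoc on 1. None of the 14 had a level on replicate 1 at least 0.5 log2 units above the other arrays, which at 5.36% of all genes is near the background. Their median deviation on replicate 1 was -0.19, where all genes had -0.08.

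Of 24 other measured HIF targets 13 (54.2%) passed on all 4 arrays, beside 38.7% of all genes. Their median deviation on replicate 1 was -0.32, where all genes had -0.08. Replicate 1 was the highest array for 1 of the 13, beside 22.3% of all genes above background. Ndrg1, a stress-responsive gene, stood at 3.13 ± 0.32 and the mTOR inhibitor gene Ddit4, with 1 of its 2 probes, at 1.09 ± 0.53 (SD, n = 4 each). The histone demethylase gene Kdm3a stood at 0.08 ± 0.39 and Ankrd37 at 1.10 ± 0.10 (SD, n = 4 each). P4ha1 and P4ha2, collagen prolyl hydroxylases of the same enzyme class as the EGLN proteins, stood at 1.15 ± 0.21 and 2.13 ± 0.25 (SD, n = 4 each). Hmox1 and Tfrc, which HIF shares with other regulators, passed as well. The carbonic anhydrase genes Car9 and Car12, and Epo, Edn1, Pdgfb and Cxcr4 passed on no array.

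The lists for the families of the secreted members leave out Vegfa and Adm themselves. Of the other genes, 3 of 9 in the VEGF list (33.3%) and 0 of 9 in the adrenomedullin list passed on all 4 arrays, beside 38.7% of all genes. In the VEGF family Vegfb at 2.99 ± 0.48, Nrp1 at 2.11 ± 0.13 and Nrp2 at 1.49 ± 0.50 (SD, n = 4 each) passed on all 4 arrays, each with 1 of its probes. The receptor gene Kdr passed on no array and Flt1 on 1. In the adrenomedullin family the receptor gene Calcrl and the genes of its accessory proteins, Ramp1, Ramp2 and Ramp3, passed on no array. The ligand's transcript thus passed the flag on all 4 arrays and those of its receptor did not.

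Of 12 genes related to Bnip3 or to mitophagy 8 (66.7%) passed on all 4 arrays, beside 38.7% of all genes. Bnip3l, which encodes the mitophagy receptor NIX and is the closest relative of Bnip3, stood at 4.80, 4.38, 4.15 and 4.08 on replicates 1 to 4. Replicate 1 was again the highest, deviating by 0.67 relative to the median gene. Of the 48 pathway genes it was the 1 with a level on replicate 1 at least 0.5 log2 units above the other arrays, a count no higher than the 5.36% of all genes would give. Its profile lay 0.04 log2 units from that of the leading Bnip3 probe, rank 7 of 6413 genes. A distance of at most 0.1 from the leading Bnip3 probe was found for 149 genes. The second Bnip3 probe deviated on replicate 1 by -0.03 relative to the median gene, so it did not share the deviation of Bnip3l. Pink1 stood at 1.75 ± 0.16 and Map1lc3b, which encodes the autophagosome protein LC3B, at 6.02 ± 0.08 (SD, n = 4 each). Pink1 passed with 1 of its 2 probes, while Fundc1 passed on no array. Bnip1 and Bnip2, which share the family name but belong to other protein families, deviated on replicate 1 by -0.61 and -0.59 relative to the median gene.

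**Figure D5:**
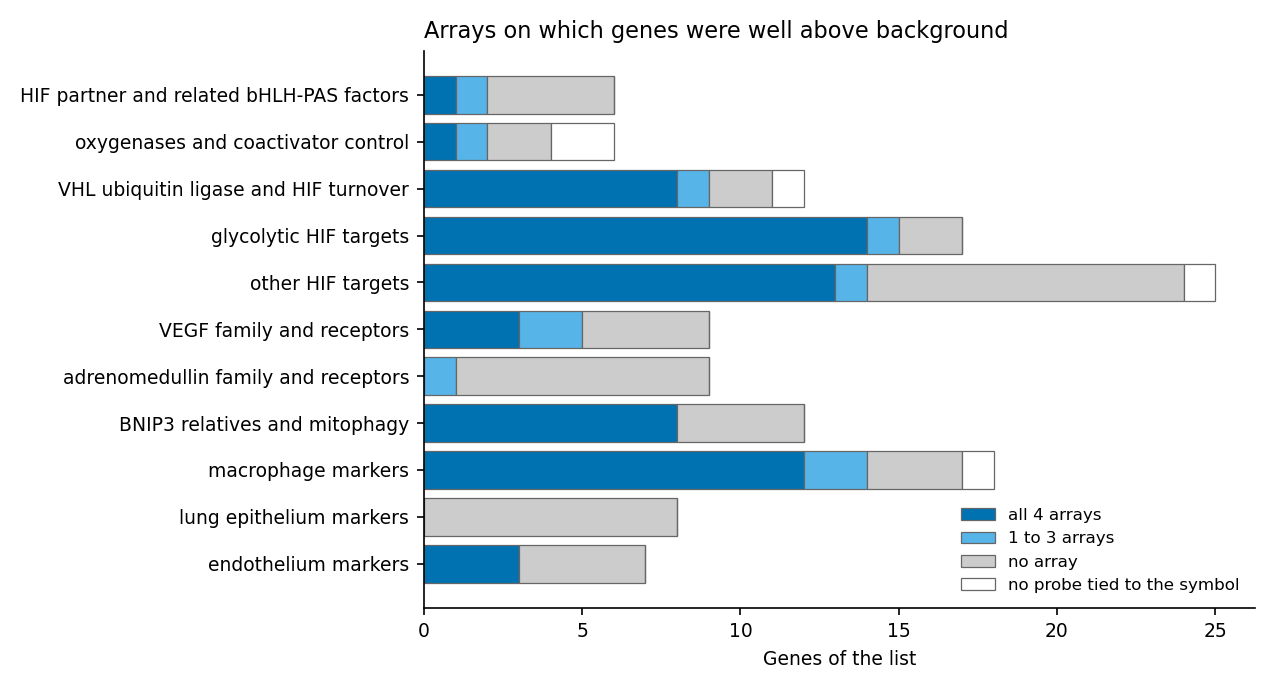
Number of genes in each pathway or marker list by the arrays on which they were well above background (all 4, 1 to 3, none, or no probe tied to the symbol). Glycolytic HIF targets (14 of 17 measured) are mostly present. No gene of the adrenomedullin family list, which leaves out the member Adm, passed on all 4 arrays.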

How the data were processed

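Total RNA (100 ng, integrity number above 7.5) was labelled with Cy3 and hybridised to 4 one-colour arrays, per the labels' protocols. The deposited intensities are the output of Agilent Feature Extraction (11.0.1.1), the version that the submitters' processing notes name. Per the file headers they comprise a processed signal per spot, background-subtracted and detrended within the array but not scaled between arrays, the median signals of spot and background, and flags coded 0 or 1. All 4 arrays shared 1 slide and 1 scan time, per the file headers. The array design names build rn4, so no probe or gene coordinates are given; the windows ahead of 3 genes carry the GRCr8 positions of the RefSeq table.

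Control spots (4259 per array) and outlier spots (491 to 828) were left out, and spots of a probe averaged on the log2 scale, giving 45598 probes. To pass on an array, a probe needed the flag for well above background in a share of 0.5 or more of its spots. Accessions without versions gave 21109 probes with 1 symbol in the RefSeq table of GRCr8, 24489 with none and 0 with several; probes with none are unnamed here. The 75th percentile of all probes was subtracted per array, and a gene takes its probe with the highest mean. A gene passed if 1 probe passed on all 4 arrays. With 1 group no test between groups was made; single outlying arrays were looked for with Dixon's ratio. The named genes are the 10 members, genes of the pathway and marker lists, and the genes nearest to each member. Members and lists were chosen with earlier results of these data known. Alternatives are under the closing section; normexp used limma 3.58.1 (R 4.3.3) on median signals with an offset of 50. Other steps ran in Python 3.11.15 with numpy 2.4.6 and pandas 2.3.3 and were tested on simulated data.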

Additional observations from a re-analysis of the deposited data

Results flagged for a closer look

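The levels of the 5 members, the second Bnip3 probe and the 48 pathway genes well above background, 54 in all, were examined for a single outlying array, and 1 exceeded Dixon's 95% critical value for 4 samples, where chance gives about 1 in 20. Over all genes well above background 315 (4.91%) exceeded it. Hsp90ab1, a constitutive HSP90 chaperone gene from the list of HIF turnover, stood at 6.84 on replicate 1, against 8.31, 8.37 and 8.39 on replicates 2, 3 and 4, with a Dixon's ratio of 0.950. A second Hsp90ab1 probe, also well above background on every array, stood at 6.34 on replicate 1, against 6.74, 6.54 and 6.58 on the others. Whether the array or the cells of replicate 1 carry this difference was not tested. None of the 5 members well above background was past the critical value: the ratio was 0.763 for Adm, 0.687 for Bnip3 and 0.649 for Hif1a, all with replicate 1 as the outlying array.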

How the results depend on the processing

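The count of members well above background on all 4 arrays was 5. It was 6 with the looser flag and with 3 of 4 arrays, 4 when all probes had to pass, and 5 to 6 with 1 replicate left out; for the pathway genes it was 48, 54, 48, 37 and 48 to 48. The share of all genes was 38.7%, 50.9%, 41.5% and 33.2% under the first 4 of these, and 38.8% to 40.1% with 1 replicate left out. Replicate 3 decided the call of Arnt. Levels have no fixed zero and moved with the scaling, in the order Hif1a, Vhl, Egln2, Adm and Bnip3: -1.42, -0.90, -1.30, -4.28 and -2.12 against the 75th percentile of detected probes, 7.93, 8.45, 8.06, 5.08 and 7.23 without scaling, and -2.70, -2.18, -2.57, -5.55 and -3.40 with spike-in centring, an alternative chosen after seeing the data. After normexp they were 1.66 for Hif1a, 2.15 for Vhl, 1.84 for Egln2 and 1.24 for Bnip3. With the mean of all probes they were 0.39 for Hif1a and 1.93 for Bnip3. With 1 replicate left out they ranged from 2.85 to 3.15 for Hif1a, 3.51 to 3.61 for Vhl, 3.00 to 3.27 for Egln2, -0.01 to 0.29 for Adm and 2.19 to 2.41 for Bnip3. The median SD of the members was 0.36. It was 0.67 without scaling, 0.19 after normexp and 0.82 with spike-in centring, against 0.38, 0.19 and 0.57 for all genes, was 0.38 against 0.43 with no filter on dim probes, and ranged from 0.11 to 0.41 with 1 replicate left out, 0.11 being without replicate 1.

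The deviation of replicate 1 relative to the median gene turned to -0.40 for Hif1a with the mean of all probes. The second Hif1a probe, well above background on no array, deviated by -1.69. The deviation was 0.35 for Bnip3 with the mean of all probes, 0.18 for Adm after normexp and -0.27 for Vhl with the local trend removed. With replicate 2, 3 or 4 left out it ranged from 0.72 to 0.88 for Hif1a, 0.78 to 0.89 for Adm, 0.59 to 0.73 for Bnip3, -0.18 to -0.10 for Vhl and -0.51 to -0.20 for Egln2. The median gene itself deviated on replicate 1 by -0.08, by 0.56 without scaling, 0.18 after normexp and 0.46 with spike-in centring. These alternatives for the deviation were chosen after seeing the data. The slide was not run as a block, since all arrays lay on 1. No paired analysis was possible because there is 1 group. Signals near background, as for Arnt and Adm, limit what these arrays resolve.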
